A study of Mus musculus with 6 samples.

Results

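Of the 52636 genes counted in cultured J110 and SSM3 cells, the 10 described here encode the ligands that tumour cells can show to T cells, natural killer cells and macrophages to hold them back or to stimulate them. They were taken by name from a list of checkpoint and costimulatory ligands (Cd274, Pdcd1lg2, Cd80, Cd86, Cd276, Vtcn1, Vsir, Nectin2, Pvr and Cd47), and all 10 were found in the count table. J110 is a mouse mammary tumour line from mice that carry AIB1 cDNA under the MMTV LTR, a promoter active in mammary epithelium. SSM3 is a mouse mammary tumour line from 129SvEv mice. RNA from 3 biological replicates of each line, kept in different media, serum and CO2, was sequenced from its 3′ ends, so the culture and the line cannot be told apart. Each line is a single cell line, and J110 and SSM3 below stand for the labels of the libraries.

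Checkpoint ligands are surface proteins. PD-L1 (from Cd274) and PD-L2 (from Pdcd1lg2) bind PD-1 on T cells and restrain them, and interferon-gamma is known to raise PD-L1 through JAK kinases and IRF1. CD80 and CD86, chiefly made by antigen-presenting cells, bind CD28 and CTLA-4. Nectin-2 and PVR are both seen by the activating receptor CD226 and the inhibitory receptor TIGIT. CD47 binds SIRPα on macrophages as a signal against being engulfed.

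Total counts ranged from 4200785 to 5416305 per library. Levels are given in CPM, a count scaled by its library total and TMM factor, and 12284 genes with enough counts were compared with edgeR's quasi-likelihood test, SSM3 against J110. Of these, 9566 had a Benjamini-Hochberg adjusted p under 0.05, which is 77.9% of the genes tested, so that a call by itself sets no gene apart from the rest. A total of 3 counts over the 3 libraries of a line corresponds to 0.200 CPM in J110 and 0.211 CPM in SSM3, and such limits hold for counting error alone. Ncoa3, which encodes AIB1, was counted at 110, 106 and 102 in J110 and at 181, 199 and 186 in SSM3, and was thus not higher in the line with the AIB1 transgene. Whether tags from the transgene cDNA are counted at Ncoa3 is not known, so these counts cannot show whether the transgene was expressed. Ncoa3 shares exon sequence with Sulf2 on the opposite strand, which had 337 to 356 and 960 to 1021 counts. All directions rest on the labels of the libraries. By flow cytometry, the paper reports SSM3 cells as positive for the epithelial protein EpCAM and luminal, and J110 cells as basal. Under these labels Epcam was counted 2, 1 and 7 times in the J110 libraries, against 2376, 2404 and 2412 in SSM3. More Epcam was thus counted under the label of the EpCAM-positive line. An exchange of labels was not tested in any other way. Differences below are log2 values of SSM3 over J110 with their standard error (SE).

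The ligands fell into those with more than 300 counts in every library of at least one line (Cd47, Nectin2, Pvr and Cd276), those with at most 2 counts in all in one line and a few in each library of the other (Cd80 and Vtcn1), and those with almost none (Cd274, Pdcd1lg2, Cd86 and Vsir). In SSM3, Nectin2 was 20.5-fold higher, Cd276 was 3.57-fold lower and Pvr was 3.08-fold lower than in J110. Cd47 differed least among the 5 ligands tested. PD-L1 transcript was hardly counted in either line.

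**Figure D1:**
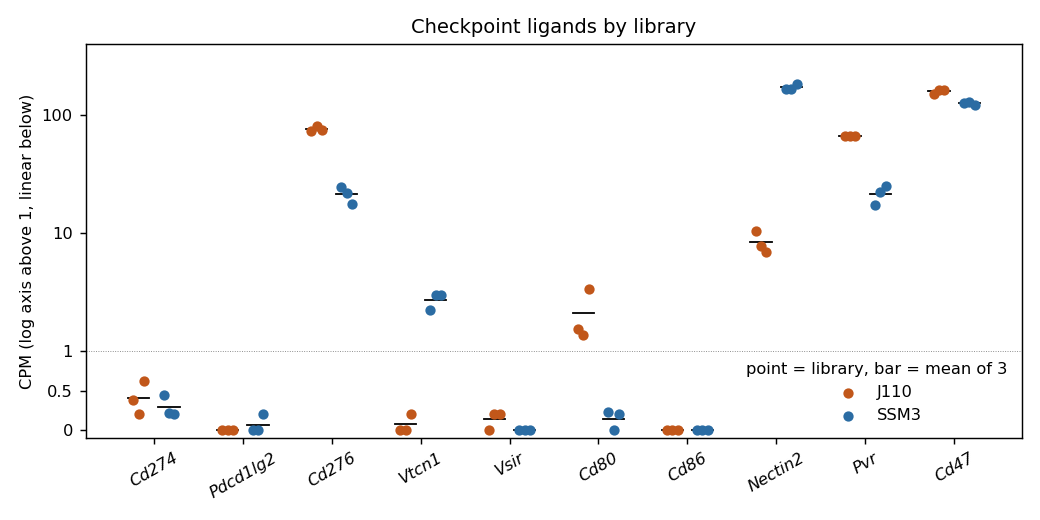
CPM of the 10 checkpoint ligands in each library (points) with the mean of 3 libraries (bars), J110 in orange and SSM3 in blue. The vertical axis is logarithmic above 1 CPM and linear below. Cd276 and Pvr lie higher in J110, Nectin2 lies higher in SSM3, Cd47 lies close together in both lines, and Cd274, Pdcd1lg2, Vsir and Cd86 stay below 1 CPM in all 6 libraries.

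Of the 10 ligands, 5 passed the filter on low counts and were tested, and all 5 had an adjusted p under 0.05, 2 higher and 3 lower in SSM3, beside 38.6% and 39.2% of all genes tested. Libraries of the lines did not overlap for 6 ligands, 2 higher and 4 lower in SSM3, as for 39.4% and 40.3% of all genes tested. Vtcn1 passed the filter through its SSM3 counts alone, so that it had to differ. The other 5 ligands fell below the filter and are given by their counts.

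Cd274 (ENSMUSG00000016496, chromosome 19 of mm10 from 29367455 to 29388095, forward strand) was counted 2, 1 and 3 times in the J110 libraries, against 2, 1 and 1 in SSM3. The libraries of the lines overlapped, and no library had more than 3 counts. Over its 3 libraries J110 held 0.399 CPM (95% exact Poisson limits 0.146 and 0.869) and SSM3 held 0.281 CPM (0.0766 and 0.720). A difference between the lines was not detectable at this depth. When all genes with at least 1 count were tested, the adjusted p of Cd274 from edgeR was 0.743.

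Pdcd1lg2 (ENSMUSG00000016498, chromosome 19 from 29410919 to 29471161, forward strand) had 0 counts in every J110 library and 0, 0 and 1 counts in SSM3. This is the gene of the other PD-1 ligand and starts 22.8 kb after the end of Cd274. Vsir (ENSMUSG00000020101, chromosome 10 from 60346851 to 60372684, forward strand) encodes VISTA, a restraining ligand best known from myeloid cells, and had 0, 1 and 1 counts in J110 and none in SSM3. For Vsir a total of 0 counts in SSM3 allows up to 0.211 CPM, by the limit of 3 counts over a line.

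Of the pair of costimulatory ligands, Cd86 (ENSMUSG00000022901, chromosome 16 from 36603869 to 36666081, reverse strand) had no count in any of the 6 libraries, which allows up to 0.200 CPM in J110 and 0.211 CPM in SSM3. Cd80 (ENSMUSG00000075122, chromosome 16 from 38455561 to 38496335, forward strand) was counted 8, 7 and 16 times in the J110 libraries, against 1, 0 and 1 in SSM3. The lines did not overlap, with J110 above SSM3. Cd80 was at 2.09 ± 1.09 CPM in the J110 libraries against 0.141 ± 0.122 CPM for SSM3 (mean ± SD, n = 3 per line). From the totals of 31 and 2 counts, Cd80 was 14.7-fold lower in SSM3, with 95% counting limits of 3.73-fold and 126-fold. Without the filter on low counts, edgeR gave Cd80 an adjusted p of 1.31e-05.

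Because CD80 and CD86 are best known from leukocytes, 18 leukocyte markers were counted beside them. Of these, 14 had at most 3 counts in every library. The summed level of the list ranged from 29.4 to 37.4 CPM in J110 and from 15.1 to 18.5 CPM in SSM3, nearly all of it from Csf1r and Cd68. Csf1r had 64, 82 and 69 counts in J110 where Hmgxb3, which overlaps it on the opposite strand, had 64, 82 and 72, so its value is uncertain. Cd68, a gene of lysosomes that is abundant in macrophages but not limited to them, was counted 115, 95 and 70 times in the J110 libraries, against 9, 5 and 6 in SSM3. Lyz2, a lysozyme gene of myeloid cells, was counted 6, 10 and 0 times in the J110 libraries, against 0, 0 and 0 in SSM3. The defining markers Ptprc, Tyrobp, Laptm5 and Cd3e together were counted 0, 1 and 1 times in the J110 libraries, against 0, 3 and 0 in SSM3. Cd80 was highest in J110 replicate 3, where the 16 markers other than Csf1r and Cd68 summed to 0.417 CPM, against 2.12 and 2.37 CPM in the other J110 libraries. These sums are 2, 11 and 12 counts, mostly of Lyz2 and of Coro1a, which had 5, 1 and 0 counts in J110 replicates 1, 2 and 3. The part of leukocytes in the Cd80 counts was not tested. In bulk RNA, fewer cells of a type and less RNA per cell cannot be told apart.

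The remaining members of the B7 family moved in opposite directions. Cd276 (ENSMUSG00000035914, chromosome 9 from 58524298 to 58555437, reverse strand) encodes B7-H3, a B7 protein found on many solid tumours, and was counted 383, 406 and 355 times in the J110 libraries, against 110, 103 and 89 in SSM3. Every J110 library lay above every SSM3 library. Cd276 was at 76.1 ± 3.67 CPM in the J110 libraries against 21.4 ± 3.42 CPM for SSM3 (mean ± SD, n = 3 per line). Its log2 difference was -1.84 (SE 0.12, 95% limits -2.08 and -1.59, adjusted p = 3.73e-10 by the edgeR test). Gm10657, which shares exon sequence with Cd276 on the opposite strand, had at most 2 counts in a library.

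Vtcn1 (ENSMUSG00000051076, chromosome 3 from 100825459 to 100896922, forward strand) encodes B7-H4, an inhibitory ligand known from breast carcinomas and glandular epithelium. It was counted 0, 0 and 1 times in the J110 libraries, against 10, 14 and 15 in SSM3, or 2.73 ± 0.434 CPM (SD, n = 3) in SSM3, and the lines did not overlap. From totals of 1 and 39 counts it was 41.2-fold higher in SSM3, with 95% counting limits of 6.98-fold and 1669-fold (adjusted p = 6.87e-06 by the edgeR test). The single J110 count fell in replicate 3, and without that library Vtcn1 had no count in J110 and a fitted log2 difference of 6.75 in place of 4.91.

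Nectin2 and Pvr, the ligands that share TIGIT and CD226, went in opposite directions. Nectin2 (ENSMUSG00000062300, chromosome 7 from 19716644 to 19750483, reverse strand) also joins neighbouring epithelial cells. It was counted 54, 39 and 33 times in the J110 libraries, against 753, 780 and 913 in SSM3, with all SSM3 libraries above all J110 libraries. It was at 8.34 ± 1.84 CPM in the J110 libraries against 172 ± 8.73 CPM for SSM3 (mean ± SD, n = 3 per line). The log2 difference of Nectin2 was 4.35 (SE 0.13, 95% limits 4.09 and 4.62, adjusted p = 1.45e-14 by the edgeR test), and 10.8% of all genes tested had a change of this size or more in either direction.

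Every library held a few counts of genes that belong to the other line. Over genes above 200 CPM in one line and under 1% of that level in the other, J110 libraries held from 0.150% to 0.357% of the SSM3 level and SSM3 libraries from 0.166% to 0.426% of the J110 level. At these shares Nectin2 would have 1.44, 1.31 and 2.95 counts in the J110 libraries, where 54, 39 and 33 were counted. Vtcn1 would have 0.0470 counts in J110 replicate 3, where 1 was counted. The genes were chosen for being under 1%, so the shares were bound to be small. The source of low counts was not tested for any gene.

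Pvr (ENSMUSG00000040511, chromosome 7 from 19903578 to 19921160, reverse strand) encodes the poliovirus receptor homologue CD155 and was counted 346, 336 and 320 times in the J110 libraries, against 77, 106 and 125 in SSM3. Every J110 library lay above every SSM3 library, at 66.6 ± 0.167 CPM in the J110 libraries against 21.5 ± 3.96 CPM for SSM3 (mean ± SD, n = 3 per line). Its log2 difference was -1.62 (SE 0.12, 95% limits -1.88 and -1.37, adjusted p = 3.03e-09 from the same test).

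Because both ligands are read by the same receptors, the share of Nectin2 in the summed counts of Nectin2 and Pvr was taken in each library, which needs no scaling between libraries. It was 13.5%, 10.4% and 9.35% in J110 and 90.7%, 88.0% and 88.0% in SSM3. The mean share was 11.1% ± 2.16 for J110 against 88.9% ± 1.57 for SSM3 (SD, n = 3 per line), with no overlap (p = 0.1 in an exact permutation test, two-sided, which cannot go lower with 3 libraries against 3).

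**Figure D2:**
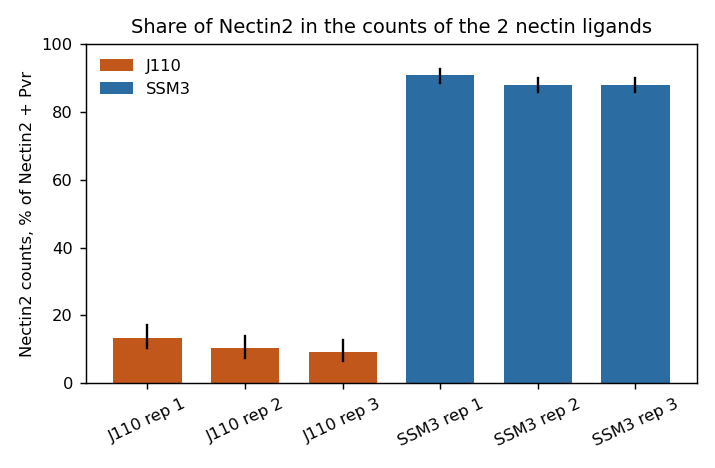
Share of Nectin2 counts in the sum of Nectin2 and Pvr counts, in percent, for each library, with 95% exact binomial limits (lines) that cover counting error only. The 3 J110 libraries lie between 9.35% and 13.5% and the 3 SSM3 libraries between 88.0% and 90.7%.

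Cd47 (ENSMUSG00000055447, chromosome 16 from 49800533 to 49915010, forward strand) was counted 785, 825 and 781 times in the J110 libraries, against 566, 607 and 611 in SSM3. It was at 159 ± 6.78 CPM in the J110 libraries against 126 ± 3.69 CPM for SSM3 (mean ± SD, n = 3 per line), and the lines did not overlap, as was so for 79.6% of all genes tested. Its log2 difference was -0.34 (SE 0.077, 95% limits -0.51 and -0.18, adjusted p = 0.000676 by the edgeR test), and 77.5% of the genes tested had a change at least as large. With library size alone as the scaling, which moves the median of all genes from -0.014 to 0.16, the log2 difference of Cd47 was -0.17 and its adjusted p was 0.0596. Over the alternatives that test for any change the adjusted p ranged from 0.000305 to 0.0596.

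**Figure D3:**
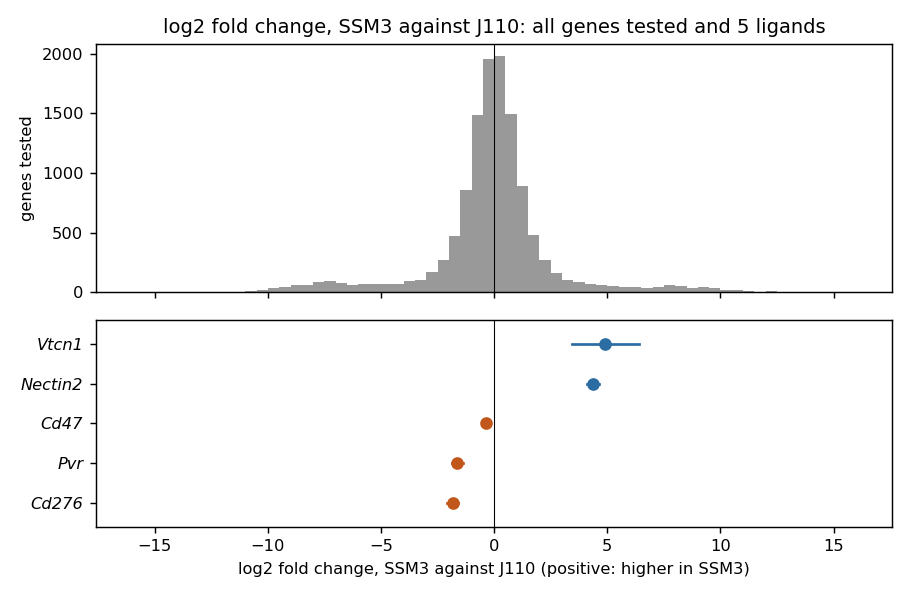
Upper panel, histogram of the log2 fold changes of the 12284 genes tested, SSM3 against J110. Lower panel, log2 fold change (points) with 95% limits (lines) of the 5 ligands tested, with positive values for higher levels in SSM3. Nectin2 at 4.35 lies in the right tail, Cd276 at -1.84 and Pvr at -1.62 lie to the left, and Cd47 at -0.34 lies among the bulk of genes, while the fitted value of Vtcn1 rests on 1 count in J110.

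Promoter windows, from 250 bases before to 50 bases after the RefSeq transcript start, were found for 8 of the 10 ligands (Pvr and Cd86 had none in the table used). The windows of Cd274 and Pdcd1lg2, the adjacent PD-1 ligand genes with almost no counts, and of Nectin2 and Cd276, which moved in opposite directions, are shown 5′ to 3′ with CG dinucleotides in capitals. They lie at chr19:29367188-29367487 and chr19:29410669-29410968 on the forward strand and at chr7:19749524-19749823 and chr9:58554984-58555283 on the reverse strand (GRCm38.p6).
Cd274: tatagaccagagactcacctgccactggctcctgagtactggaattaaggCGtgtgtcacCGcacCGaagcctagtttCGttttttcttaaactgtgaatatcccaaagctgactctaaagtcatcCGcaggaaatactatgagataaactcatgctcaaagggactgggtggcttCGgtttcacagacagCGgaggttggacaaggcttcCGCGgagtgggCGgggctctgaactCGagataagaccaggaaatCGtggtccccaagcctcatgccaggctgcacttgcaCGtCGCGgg
Pdcd1lg2: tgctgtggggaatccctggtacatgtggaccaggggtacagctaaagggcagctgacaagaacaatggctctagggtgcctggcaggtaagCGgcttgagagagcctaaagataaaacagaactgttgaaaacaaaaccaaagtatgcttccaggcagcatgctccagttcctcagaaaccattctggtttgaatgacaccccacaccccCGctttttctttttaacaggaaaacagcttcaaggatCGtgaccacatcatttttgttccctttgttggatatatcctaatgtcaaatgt
Nectin2: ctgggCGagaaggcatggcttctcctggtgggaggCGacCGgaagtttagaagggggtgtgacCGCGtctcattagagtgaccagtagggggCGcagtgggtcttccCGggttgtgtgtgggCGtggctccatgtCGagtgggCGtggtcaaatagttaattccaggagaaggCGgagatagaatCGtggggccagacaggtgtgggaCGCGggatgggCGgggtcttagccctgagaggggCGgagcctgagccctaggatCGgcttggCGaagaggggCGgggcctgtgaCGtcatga
Cd276: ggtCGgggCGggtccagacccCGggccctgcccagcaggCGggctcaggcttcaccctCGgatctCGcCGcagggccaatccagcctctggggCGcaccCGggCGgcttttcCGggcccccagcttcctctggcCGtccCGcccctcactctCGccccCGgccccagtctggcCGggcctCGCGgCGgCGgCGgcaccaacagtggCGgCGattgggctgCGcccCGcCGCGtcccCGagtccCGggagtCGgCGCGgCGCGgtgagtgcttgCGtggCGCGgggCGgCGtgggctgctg

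The window of Cd276 held 39 CG dinucleotides, a number reached by 4.45% of the 32851 RefSeq windows, and those of Cd47 held 35 and 36. The Nectin2 window held 20. Among the ligands with few or no counts, Cd274 and Vsir held 15 each, Vtcn1 held 5, and Cd80 and Pdcd1lg2 held 3 each, beside a median of 7 over all windows. The letters TTCNNNGAA, the core of gamma-activated sites, and those of the core of interferon-stimulated response elements (GAAA, any 2 bases, GAAA) were searched on both strands. Neither was found in any of these windows, where 8.30% and 3.44% of all RefSeq windows hold them, which says only that these letters are not within these 300 bases.

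The genes around the PD-1 ligands were read next, chosen after their values were seen. Within 250 kb of Cd274, 6 other genes were tested, and 5 of them were higher in SSM3. Insl6 passed the filter through SSM3 alone and had to be higher, and of the other 5 genes 4 were higher, beside 38.6% of all genes tested. Rcl1 had a log2 difference of 3.49 (SE 0.11), Insl6 of 6.14 (0.19), Ric1 of 1.44 (0.16) and Ermp1 of 3.13 (0.13). Jak2, which encodes the kinase that carries signals from the interferon-gamma receptor and ends 54.4 kb before Cd274, was counted 160, 165 and 156 times in the J110 libraries, against 1669, 1965 and 1971 in SSM3. Plgrkt, which lies 65 bp before Cd274 on the reverse strand, was lower in SSM3 with a log2 difference of -0.92 (SE 0.18, adjusted p = 0.000156 by the edgeR test). Cd274 and Pdcd1lg2 had almost no counts in either line.

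Nectin2 and Pvr lie on the same strand, 153.1 kb apart. The 4 genes tested between them, Cblc, Bcl3, Gm44658 and Ceacam19, had more counts in SSM3. Bcl3 was counted 6, 7 and 9 times in the J110 libraries, against 625, 538 and 741 in SSM3. The other 3 had at most 2 counts in a J110 library and from 19 to 232 in SSM3 libraries. All 4 passed the filter through SSM3, so that they had to be higher. Within 250 kb of Pvr all 8 other genes tested were higher in SSM3, Nectin2 and these 4 among them, and Pvr was lower. Within 250 kb of Nectin2, 13 of 16 other genes tested were higher and 2 were lower, which were Pvr and Bloc1s3. Nkpd1 and Zfp296 also passed through SSM3 alone, and of the 10 genes that passed through both lines 7 were higher, beside 38.6% of all genes tested.

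**Figure D4:**
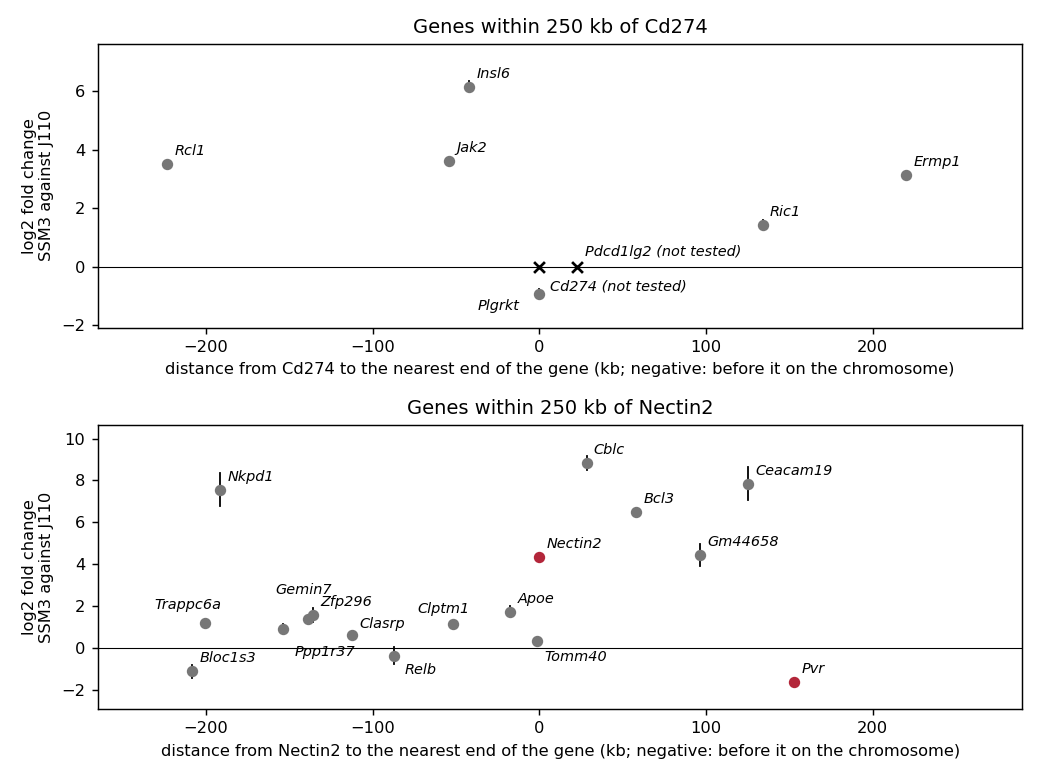
Log2 fold change, SSM3 against J110, with its SE (lines) for genes tested within 250 kb of Cd274 (upper panel) and of Nectin2 (lower panel), against the distance in kb to the nearest end of each gene. Crosses at 0 mark Cd274 and Pdcd1lg2, which fell below the filter on low counts. Values of genes with almost no J110 counts, such as Ceacam19 and Nkpd1, depend on the fit. Red points mark ligands of the list. Pvr at -1.62 is below 0 beside Nectin2 at 4.35 and the 4 genes between them.

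The route by which interferon-gamma raises PD-L1 was counted over 10 genes, of which all were tested, 4 were higher and 4 were lower in SSM3, beside 77.9% of all genes, with a median log2 difference of 0.17 beside -0.014 for all genes tested. Jak2 was at 32.0 ± 1.01 CPM in the J110 libraries against 394 ± 22.9 CPM for SSM3 (mean ± SD, n = 3 per line), a log2 difference of 3.62 (SE 0.086, adjusted p = 1.53e-15 by the edgeR test). Stat3, which carries cytokine signals, was at 43.7 ± 1.42 and 286 ± 20.0 CPM (SD, n = 3 each). It shares 72 bp of exon with Stat5a on the opposite strand, which also had more counts in SSM3, from 520 to 562 against 17 to 34. Irf1, the factor that acts on the Cd274 promoter and was named after its value was seen, was at 20.0 ± 1.66 CPM in the J110 libraries against 85.3 ± 5.49 CPM for SSM3 (mean ± SD, n = 3 per line). The lines did not overlap for any of these 3 genes.

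The receptor subunit gene Ifngr1 went the other way, from 158, 185 and 117 counts in J110 to 22, 24 and 21 in SSM3, a log2 difference of -2.69 (SE 0.20, adjusted p = 2.91e-09). Jak1, the partner kinase of JAK2, was at 193 ± 10.4 CPM in the J110 libraries against 109 ± 0.533 CPM for SSM3 (mean ± SD, n = 3 per line), with a log2 difference of -0.83 (SE 0.077). Socs1 and Ptpn2, which damp JAK signals, were also lower in SSM3, with log2 differences of -2.61 and -0.86, but Socs1 passed the filter on low counts through J110 alone and had to be lower. Ifngr2 had an adjusted p of 0.0666, but 0.000462 without SSM3 replicate 3, 0.0136 with library size only and 0.0175 without the filter, and Irf2 had one of 0.948.

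Of 16 other ligands of lymphocyte and macrophage receptors, 8 were tested, of which 5 were higher and 2 lower in SSM3, 87.5% called beside 77.9% of all genes. Cd200, Ceacam1 and Nectin4 among them passed the filter through SSM3, so that they had to be higher. Cd200, whose product restrains myeloid cells, was counted 0, 0 and 4 times in the J110 libraries, against 1755, 1935 and 1810 in SSM3. The 4 J110 counts all fell in replicate 3. The share of counts on genes of the other line would give 3.24, 2.94 and 6.62 counts in the 3 J110 libraries. Ceacam1, an adhesion protein and ligand of TIM-3, had totals of 1 and 1579 counts, and was 1669-fold higher in SSM3 with 95% counting limits of 299-fold and 65959-fold. Its J110 count fell in replicate 2. Cd24a, a signal against phagocytosis like CD47, was at 362 ± 20.0 CPM in the J110 libraries against 1138 ± 67.7 CPM for SSM3 (mean ± SD, n = 3 per line), a log2 difference of 1.65 (SE 0.072, adjusted p = 3.03e-12). Cadm1, an adhesion protein bound by CRTAM, was at 535 ± 14.1 CPM in the J110 libraries against 8.54 ± 1.05 CPM for SSM3 (mean ± SD, n = 3 per line), a log2 difference of -5.97 (SE 0.10, adjusted p = 8.67e-17). Nectin1 was the tested gene of this list without a call, at 23.9 ± 1.58 and 23.7 ± 3.22 CPM (SD, n = 3 each).

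Most receptors of these ligands, known chiefly from lymphocytes and myeloid cells, had few or no counts. The list summed to 129 to 136 CPM in J110, mostly from Havcr2 and Igsf11, and to 5.52 to 6.90 CPM in SSM3. Of 19 receptor genes, 8 had no count at all, among them Pdcd1, Ctla4, Cd226, Cd96 and Lag3, and 14 had at most 3 counts in every library. The 4 that passed the filter on low counts had at most 3 counts in every library of the other line and passed through a single line, so that they had to differ. Havcr2, which encodes TIM-3, was counted 413, 368 and 383 times in the J110 libraries, against 1, 0 and 0 in SSM3, or 1101-fold lower in SSM3 with 95% counting limits of 197-fold and 43536-fold. Igsf11, an adhesion protein that binds VISTA, was counted 270, 299 and 214 times in the J110 libraries, against 1, 0 and 0 in SSM3, or 741-fold lower with limits of 133-fold and 29298-fold. Siglecg, the receptor of CD24, had 13, 13 and 11 counts in J110 and none in SSM3, and was at least 11.7-fold lower against a floor of 3 counts over the SSM3 libraries. Sirpa, the receptor of CD47, was counted 3, 0 and 1 times in the J110 libraries, against 27, 20 and 24 in SSM3. Of the 18 leukocyte markers above, Cd68, like Havcr2, had more counts in J110, while 14 had at most 3 counts in every library. The part of such cells in these receptor counts was not tested.

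**Figure D5:**
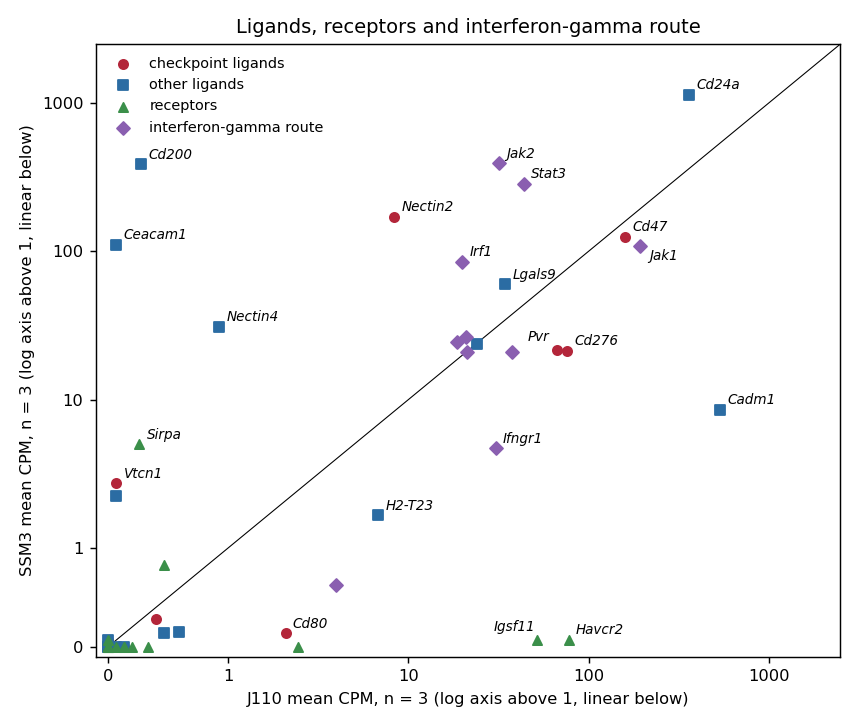
Mean CPM over 3 libraries in J110 (horizontal) and SSM3 (vertical) of the checkpoint ligands, other ligands, receptors and genes of the interferon-gamma route, on axes that are logarithmic above 1 CPM and linear below, with the line of equal levels. Havcr2, Igsf11 and Cadm1 lie far below the line, Cd200 and Ceacam1 far above it, and Cd47 close to it.

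The proteins that handle PD-L1 and CD47 after translation were counted over 13 genes, all tested, of which 6 were higher and 4 lower in SSM3, 76.9% called beside 77.9% of all genes, with a median log2 difference of 0.14. Spop and Cul3, parts of a ubiquitin ligase that turns over PD-L1, were lower in SSM3, Spop with a log2 difference of -2.31 (SE 0.16) and Cul3 with -0.78 (SE 0.088). Btrc, a component of another ubiquitin ligase, was 4.27-fold higher, and B3gnt3, a glycosyltransferase, was at -2.09 (SE 0.22). Gsk3b, the kinase that marks PD-L1 for turnover, was at -0.50 (SE 0.11), and Cops5, a deubiquitinase, at 0.36 (SE 0.081). Cmtm6, which keeps PD-L1 on the cell surface and was named after its value was seen, was at 20.9 ± 0.258 CPM in the J110 libraries against 54.0 ± 5.42 CPM for SSM3 (mean ± SD, n = 3 per line). Stt3a, Zdhhc3 and Qpctl, the enzyme that modifies the SIRPα binding site of CD47, had adjusted p-values of 0.0776, 0.161 and 0.531 by the edgeR test. Without J110 replicate 3 the adjusted p of Stt3a was 0.0153, and with library size only that of Zdhhc3 was 0.00312. Cops5, Zdhhc3 and Qpctl share exon sequence with counted genes on the opposite strand (Cspp1, Tgm4 and Fbxo46), so their values are uncertain.

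Of the 4 genes listed as partners of CD47 or signals for uptake, Thbs1, which encodes the CD47 ligand thrombospondin-1, was counted 281, 235 and 360 times in the J110 libraries, against 3, 1 and 2 in SSM3. Lrp1, the receptor of calreticulin, was counted 648, 698 and 505 times in the J110 libraries, against 5, 6 and 3 in SSM3. At the share of counts on genes of the other line, Thbs1 would have from 0.486 to 1.17 counts and Lrp1 from 1.03 to 2.47 counts in the SSM3 libraries. Both passed the filter through J110 alone, so that they had to be lower. Mfge8, which bridges dying cells to phagocytes, was higher in SSM3 by 1.61 (SE 0.072), and Calr, which encodes calreticulin, by 0.21 (SE 0.068, adjusted p = 0.0111 by the edgeR test). Without J110 replicate 2 the adjusted p of Calr was 0.0584, and the alternatives that test for any change spanned 8.24e-05 to 0.0584.

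The labels give mammary cancer as the source of both lines. Of 9 epithelial markers 8 were higher in SSM3, and Krt18 was lower with a log2 difference of -0.56. Epcam, Cldn3, Cldn7 and Esrp1 passed the filter through SSM3 alone and had to be higher, and of the other 5 markers 4 were higher, beside 38.6% of all genes tested. Krt19 had 59 to 143 counts in J110 and 32985 to 38701 in SSM3. Krt8 and Krt18 were counted in both lines, with 6182 to 12324 and 4223 to 7401 counts, while Epcam was counted 2, 1 and 7 times in the J110 libraries, against 2376, 2404 and 2412 in SSM3. Of 6 fibroblast markers 4 had at most 3 counts in every library, and Pdgfra and Col1a1 had at most 9. Among 6 endothelial markers Cdh5 had 836, 790 and 856 counts in J110, where Pecam1 had 3, 0 and 4. Kdr had 8, 11 and 6 counts in J110 and none in SSM3, and Vwf went the other way, from 1, 1 and 4 to 21, 17 and 16. The part of these differences in those of the ligands was not tested.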

How the data were processed

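RNA from 3 J110 and 3 SSM3 cultures was sequenced as 3′ tags. The authors trimmed reads (cutadapt 2.1), mapped them to mm10 (HISAT2 2.0.4), counted them per gene (featureCounts, Subread 2.0.0) and deposited raw counts for 52636 genes. The strand setting, overlap handling and annotation are not given in the sources used here, and reads beyond annotated 3′ ends may not be counted. Symbols and positions came from GENCODE M21 (GRCm38, the mm10 build), which matched 52489 identifiers, and promoters from RefSeq (GRCm38.p6).

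After filterByExpr and TMM scaling, the lines were compared by edgeR 4.0.16 (quasi-likelihood, R 4.3.3), all 6 libraries in one fit with the line as the only term and Benjamini-Hochberg adjustment over 12284 genes. Standard errors are the log2 fold change divided by the square root of F. The fit was tested on simulated counts. Tags arise about once per transcript, so CPM was not divided by length, and mean CPM ordered genes only for the naming rule below. Replicates of a line differed by more than sampling noise (chi-square per degree of freedom from 2.21 to 5.62). Exon overlaps were found with bedtools 2.31.1.

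The 10 ligands and the other lists were chosen with earlier results of these data known. All ligands are given in full. Of every other list the leading 3 genes by mean CPM and, among those called, the leading 3 by absolute log2 fold change were to be named, with Ncoa3, and marker lists are given mostly by counts and ranges. Genes without a call, the neighbours of ligands and others named as such were added after their values were seen. Alternatives were DESeq2 1.42.0, limma-voom (limma 3.58.1), glmTreat, other scalings, filters and depths, a replicate block, and leaving out libraries. Some items are not reported here.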

Additional observations from a re-analysis of the deposited data

How the results depend on the processing

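Across 18 alternatives, 120 of 126 counts of genes called stayed within 1.5 times the reported count, and the directions of Nectin2, Pvr, Cd276, Cd47 and Vtcn1 did not reverse wherever they could be fitted. A test for changes beyond 2-fold with glmTreat called 4272 genes, with 5 genes of the interferon-gamma route and 4 of protein handling. Requiring at least 10 counts in every library, which removes genes absent from one line, left 3 other ligands, 2 CD47 partners and 0 receptors called, since no receptor could then be tested. Leaving out each library in turn gave from 9275 to 9572 genes called and 5 ligands each time, with log2 fold changes of 4.23 to 4.54 for Nectin2, -1.74 to -1.48 for Pvr, -1.94 to -1.71 for Cd276, -0.39 to -0.32 for Cd47 and 4.43 to 6.75 for Vtcn1. The values of Cd200 without J110 replicate 3 (13.88) and of Ceacam1 without J110 replicate 2 (12.06), which held all of their J110 counts, and of Havcr2 and Igsf11 without SSM3 replicate 1 (-11.58 and -11.01), which held their only SSM3 count, also rest on single libraries. Leaving out J110 replicate 3 and SSM3 replicate 2 together, chosen after seeing the data, called 8881 genes and the same number of ligands, 5.

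Nectin1, Irf2 and Qpctl, which had no call, changed sign. Nectin1 was at 0.16 with library size only, 0.0051 without the filter, 0.00083 without both libraries named above and from -0.12 to 0.056 without single libraries. Irf2 was at 0.17 with library size only, 0.0095 without the filter, 0.032 with all libraries thinned to the smallest total and from -0.081 to 0.13 without single libraries, and Qpctl from -0.028 to 0.26 without single libraries. With the replicate number as a block 9481 genes and 5 ligands were called. The block moved Ifngr2 to an adjusted p of 0.0488. Libraries of the same number correlated by 0.012, 0.015 and 0.027 in their deviations from the line means, and those of different numbers by -0.021 to 0.0076. Whether the numbers pair the samples was not tested. Ligands under about 1 CPM could not be compared at this depth.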

Other observations

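Further ligands of the nectin, B7 and other families were named after their values were seen. Nectin4, a nectin of epithelial cells, was counted 4, 7 and 3 times in the J110 libraries, against 173, 148 and 116 in SSM3, a log2 difference of 5.01 (SE 0.30, adjusted p = 2.19e-10 by the edgeR test). Nectin4 passed the filter on low counts with at most 7 counts in a J110 library. Nectin3 was below that filter, with 4, 3 and 2 counts in J110 libraries against 2, 0 and 0 for SSM3. Icosl, the B7 family ligand of ICOS, was counted 1, 0 and 0 times in the J110 libraries, against 11, 8 and 13 in SSM3, below the filter on low counts, and from its totals of 1 and 32 counts was 33.8-fold higher in SSM3 with 95% counting limits of 5.65-fold and 1377-fold. Lgals9, which encodes the TIM-3 ligand galectin-9, was at 34.6 ± 2.94 CPM in the J110 libraries against 60.2 ± 5.96 CPM for SSM3 (mean ± SD, n = 3 per line), a log2 difference of 0.80 (SE 0.11, adjusted p = 4.28e-06). H2-T23, which encodes Qa-1, the ligand of an inhibitory receptor of natural killer cells, was counted 42, 34 and 27 times in the J110 libraries, against 5, 8 and 11 in SSM3, and as a member of a multigene family its count is uncertain.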
